A study of Homo sapiens with 14 samples.

Results

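The UCHL1 locus on chromosome 4 is described here by the 14 transcripts that the deposited tables list at chr4:41222091-41270472 of hg19, out of 204092 in all. They were chosen because ENST00000514764 and ENST00000508768 were the largest falls among called transcripts with a knockout value above 0, ranked by log2(FPKM + 1), so every value of knockout against wild type below is a description and supports nothing by itself.

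UCHL1 encodes a ubiquitin C-terminal hydrolase, an enzyme that removes small adducts from the end of ubiquitin and helps keep free ubiquitin available. It is one of the most abundant proteins of neurons and neuroendocrine cells, where it is used as the marker PGP 9.5, and tumours have been described both with and without it. UCHL1 starts head to head with UCHL1-DT, a long noncoding RNA that runs the other way; in mouse, an RNA antisense to Uchl1 raises translation of the Uchl1 message.

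RNA was sequenced from HEK293T cells in which SETD2 was knocked out (3 libraries) and from wild type HEK293T cells (3 libraries). HEK293T is a human embryonic kidney line that carries the SV40 large T antigen, and SETD2 is the enzyme that trimethylates lysine 36 of histone H3 along transcribed genes. Per the labels, ribosomal RNA was depleted, except that 1 wild type RNA library carries a chromatin protocol there. The labels name no guide and no clone, and do not say whether the libraries of a group were separate cultures; the p-values given below then cover a spread between libraries that may be technical.

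The files give Ensembl transcript IDs without gene symbols, and the name rests on position. RefSeq lists UCHL1-DT and UCHL1 side by side on chromosome 4, and together they span 48382 bases, the length of the locus in the files. Of 2719 pairs of neighbouring RefSeq genes on that chromosome, this was the 1 pair with exactly that span. No ID could be assigned to one gene or the other, and nothing in the labels says that strand was kept in counting, so reads of UCHL1 and of any overlapping antisense RNA cannot be told apart.

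Between the 2 RefSeq starts lie 200 bases, shown because both genes of the locus begin at its ends. It is chr4:41256728-41256927 of RefSeq's GRCh38.p14, plus strand, with each CG in capitals; UCHL1-DT starts off its left end on the minus strand and UCHL1 off its right end on the plus strand.
UCHL1-DT to UCHL1: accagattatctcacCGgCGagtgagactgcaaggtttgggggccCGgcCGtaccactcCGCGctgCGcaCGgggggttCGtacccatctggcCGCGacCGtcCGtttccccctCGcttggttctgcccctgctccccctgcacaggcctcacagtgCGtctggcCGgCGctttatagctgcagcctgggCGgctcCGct
These 200 bases hold 19 CG pairs. The promoter window of UCHL1, from 250 bases before its start to 50 after it, holds 25, and 31.9% of 34933 RefSeq promoter windows of the same length hold at least as many (median 14). The letters TATAAA, searched on both strands, occur once in the printed stretch, on the minus strand, and do not overlap a CG. They begin 177 bases upstream of the UCHL1-DT start. Of the windows, 11.6% contain them on either strand, but a window has 300 bases and the printed stretch 200. These counts describe letters only, and neither DNA methylation nor the histone marks of the series were analysed here.

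The deposited values are FPKM, mapped fragments counted per kilobase of a transcript and scaled to the size of the library, with 1 value per group and none per library. No spread between libraries could be computed, depth is unknown, and the only errors are the lower and upper bounds that the authors deposited in the FPKM tracking table, whose level is not stated. A second deposited table holds the tests, with group values of its own, and is the source of values below unless the tracking table is named. Over all transcripts of at least 0.5 FPKM, the tracking value divided by the test-table value lay between 0.652 and 1.65 in knockout cells and between 0.974 and 0.979 in the wild type (5th to 95th percentiles). The IDs matched no symbol in the name tables used, so the level of SETD2 and the markers of the cell line were not analysed here.

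Summed over its 14 transcripts, the UCHL1 locus stood at 17.6 FPKM in knockout cells and at 403 FPKM in wild type cells. The knockout sum was 4.36% of the wild type sum, a 22.9-fold difference (log2 knockout over wild type -4.52). In the tracking table the sums were 17.3 FPKM in knockout cells and 394 FPKM in wild type cells, 22.7-fold apart. The knockout sum was higher than that of 51.4% of the 12620 loci that reached 1 FPKM in either group, and the wild type sum was higher than that of 96.4% of them. The locus thus stood near the middle of the loci in knockout cells and among the higher ones in wild type cells. In bulk RNA, fewer cells that express a gene and less RNA per cell cannot be told apart. Adding up the deposited bounds of all 14 transcripts gave 0.644 to 47.6 FPKM in knockout cells and 92.5 to 745 FPKM in wild type cells. These summed bounds are no interval of the sum, since the error of transcripts that share reads is not independent, but they did not overlap. Summed bounds lay apart with the knockout lower at 0.955% of the 12467 loci that reached 1 FPKM in either group and had a value above 0 in both.

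Of the 14 transcripts, 8 reached 1 FPKM in a group and were tested by the authors, and 6 stayed under 1 FPKM in both groups and were not. In the authors' deposited table, 2 of the 8 were called lower in the knockout at a q-value of 0.05, and 0 were called higher; of the 2 tested transcripts that were higher, 0 had an unadjusted p under 0.05. Over all 85852 tested transcripts 0.255% were called, and 0.192% were called lower in the knockout; the members were chosen on this contrast, so nothing is read from their share.

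ENST00000514764 was the most abundant transcript of the locus, at 7.26 FPKM in knockout cells and 207 FPKM in wild type cells, a 28.5-fold fall with p = 5e-05 and q = 0.0220 in the authors' deposited table. That p was the smallest the authors' test gave, and other called falls, such as ENST00000372397 on chromosome X, had the same q. Neither value sets ENST00000514764 apart from them. Its deposited intervals were 0.644 to 12.7 FPKM in knockout cells and 81.3 to 323 FPKM in wild type cells and lay far apart. It was the single transcript of the locus whose knockout lower bound was above 0.

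ENST00000508768 was at 3.53 FPKM in knockout cells and 77.2 FPKM in wild type cells, a 21.9-fold fall with the same p and q in the authors' deposited table. Its intervals, 0 to 6.76 FPKM in knockout cells and 0 to 167 FPKM in wild type cells, overlapped. The call and the interval therefore differed for this transcript.

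The reverse held for a further pair. ENST00000512419 was at 3.95 FPKM in knockout cells and 69.4 FPKM in wild type cells, 17.6-fold apart, and was not called (p = 0.105, q = 0.991 in the authors' deposited table). Its intervals were 0 to 9.72 FPKM in knockout cells and 10.3 to 125 FPKM in wild type cells, separate by a narrow margin. ENST00000381760 was at 0.0673 FPKM in knockout cells and 36.8 FPKM in wild type cells and was not called either (p = 0.214 in the authors' deposited table). Its intervals were 0 to 0.312 FPKM in knockout cells and 0.887 to 70.9 FPKM in wild type cells. Its ratio of 546 rests on a knockout value near 0.

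Intervals were thus separate for 3 transcripts of the locus, and 1 of these 3 was called. Among all tested transcripts 0.632% had separate intervals, and 0.416% had them with the knockout lower. In the wild type the lower bound was above 0 for those same 3 transcripts and at 0 for the other 11.

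ENST00000284440 was listed at 0 in knockout cells and at 9.47 FPKM in wild type cells (p = 0.0882 in the authors' deposited table). The tracking table gave it 1.48 FPKM in knockout cells and 9.26 FPKM in wild type cells, with intervals of 0 to 5.90 FPKM in knockout cells and 0 to 32.8 FPKM in wild type cells. ENST00000510566 was at 0.268 FPKM in knockout cells and 3.02 FPKM in wild type cells, 11.3-fold apart, with intervals that overlapped.

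Values ran the other way for 2 transcripts, neither called. ENST00000472501 was at 1.25 FPKM in knockout cells and listed at 0 in the wild type (p = 0.0672 in the authors' deposited table). ENST00000505232 had the same rounded value of 1.25 FPKM in knockout cells and was also listed at 0 in the wild type (p = 0.0682 in the authors' deposited table). Their knockout intervals reached down to 0, and their wild type interval was 0 to 0, so that they touched.

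Among the 6 transcripts not tested, ENST00000503431, ENST00000507190, ENST00000510073 and ENST00000512788 were listed at 0 in both groups of both tables. ENST00000514924 was listed at 0 in knockout cells and at 0.247 FPKM in wild type cells. ENST00000504818 was at 0.0156 FPKM in knockout cells and 0.0299 FPKM in wild type cells in the test table, but the tracking table gave it 0.779 FPKM in knockout cells and 0.0302 FPKM in wild type cells.

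**Figure D1:**
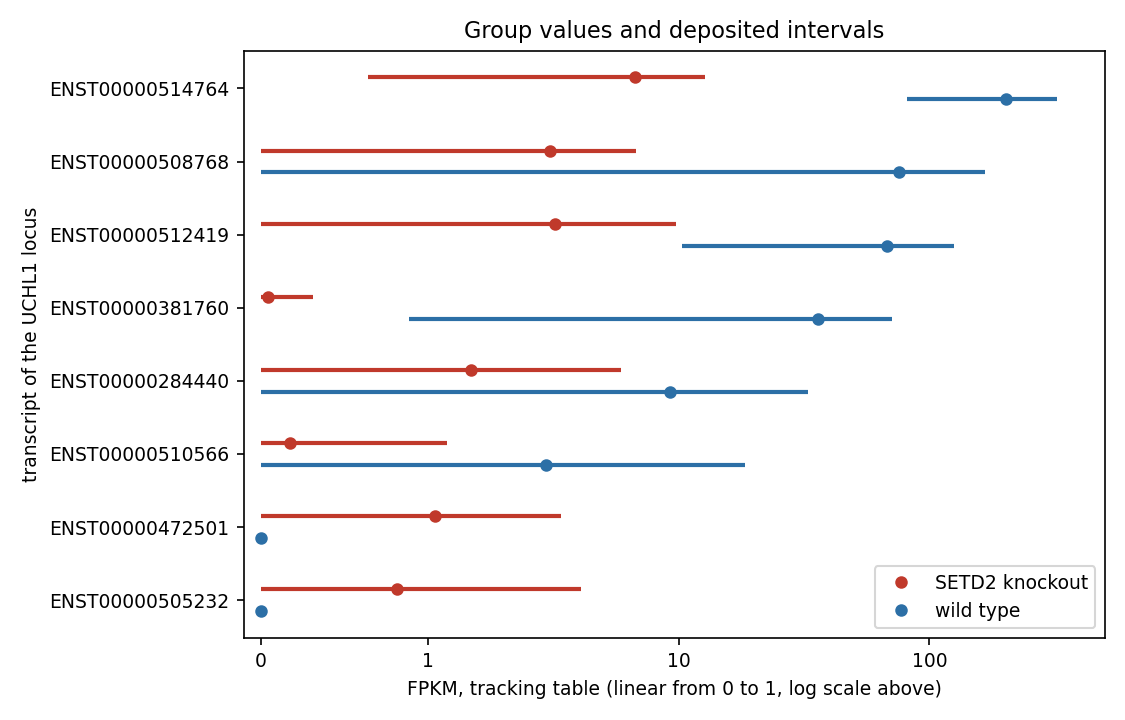
FPKM in the tracking table for the 8 transcripts of at least 1 FPKM, with points for the group value and lines for the deposited lower and upper bounds, SETD2 knockout above wild type in each pair; the axis is linear up to 1 FPKM and logarithmic above. The lines are separate for ENST00000514764, ENST00000512419 and ENST00000381760, and the lowest 2 transcripts are listed at 0 in the wild type.

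The difference did not rest on the called transcripts alone. Without ENST00000514764 the other 13 transcripts summed to 10.3 FPKM in knockout cells and 196 FPKM in wild type cells, 19.0-fold apart. Without both called transcripts the remaining 12 summed to 6.80 FPKM in knockout cells and 119 FPKM in wild type cells, 17.5-fold apart. Transcripts of a locus share reads, so these sums are not separate measurements.

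ENST00000514764 made up 41.2% of the locus sum in knockout cells and 51.3% in wild type cells, the largest share in both. ENST00000508768 made up 20.1% in knockout cells and 19.2% in wild type cells. In the tracking table it made up 17.7% in knockout cells and 19.1% in wild type cells, so its direction turned with the table. The share of ENST00000512419 was 22.5% in knockout cells and 17.2% in wild type cells. In the tracking table that share was 18.5% in knockout cells and 17.2% in wild type cells. These 3 kept the leading places in both groups, with the order of the lower pair exchanged.

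ENST00000381760 made up 0.383% of the locus in knockout cells and 9.12% in wild type cells. ENST00000284440 made up 0% in knockout cells and 2.35% in wild type cells in the test table, but 8.53% in knockout cells and 2.35% in wild type cells in the tracking table, so the direction of its share turned with the table. ENST00000510566 made up 1.52% in knockout cells and 0.749% in wild type cells. The 2 transcripts listed at 0 in the wild type took 14.2% of the knockout sum in the test table and 10.9% in the tracking table, from 2.50 FPKM together in the test table.

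Taking each transcript's lowest possible share inside the deposited bounds, with every other transcript at its upper bound, and its highest in the opposite way, the knockout and wild type ranges overlapped or touched for all 14 transcripts. For ENST00000514764 they ran from 1.81% to 100% in knockout cells and from 16.2% to 96.7% in wild type cells. For ENST00000381760 they ran from 0% to 32.6% in knockout cells and from 0.131% to 43.6% in wild type cells. In knockout cells every lower bound but that of ENST00000514764 was 0. Ranges this wide could hardly show a change of share, so nothing is concluded from their overlap.

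Moving the knockout shares onto the wild type shares would take 21.3% of the locus sum from some transcripts to others. Over 6914 loci of at least 5 transcripts and at least 5 FPKM in each group the median of this quantity was 18.7%, and 58.8% of the loci were below the UCHL1 locus. Among the 4095 of these loci under 50 FPKM in the knockout the median was 21.7%, and 48.3% lay below it. In the tracking table the UCHL1 locus had 23.1%, against a median of 16.6%, with 72.0% of loci below it. The UCHL1 locus thus lay above the median in both tables and near it among loci of low knockout level.

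**Figure D2:**
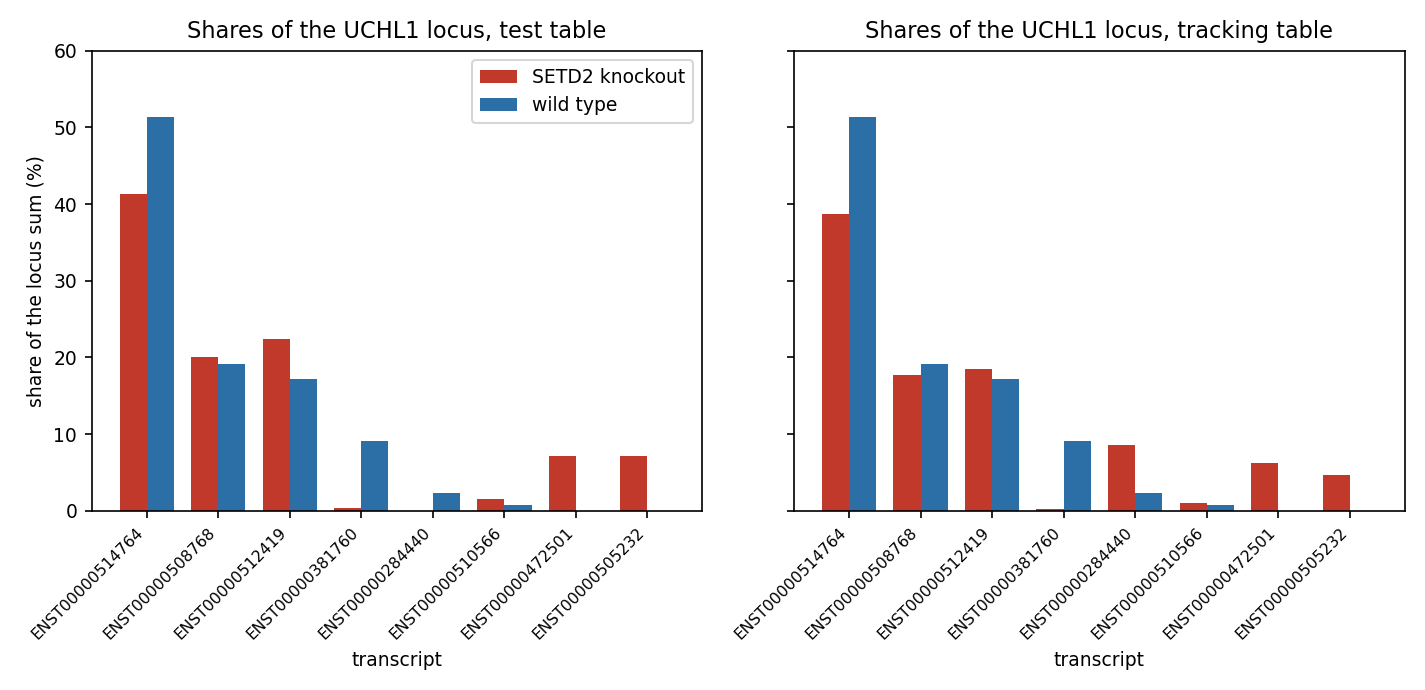
Share of the locus sum, in percent, for the 8 transcripts of at least 1 FPKM, with the SETD2 knockout bar left of the wild type bar, in the test table (left panel) and the tracking table (right panel). ENST00000514764 has the tallest bar of both groups in both panels, and the knockout bar of ENST00000284440 is 0% on the left and 8.53% on the right.

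The knockout sums of the locus were close in both tables, while single transcripts differed more. ENST00000284440 and ENST00000504818, described above, were higher in the tracking table. For the 7 transcripts that reached 1 FPKM in a group with a knockout value above 0 in the test table, the tracking value divided by the test-table value lay between 0.652 and 0.923. For the 6 with a wild type value above 0 the same ratio lay between 0.975 and 0.978. ENST00000514764 was 30.2-fold lower in the knockout in the tracking table and ENST00000508768 was 24.6-fold lower. The sources used here do not state how many libraries entered each knockout column.

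The loci on both sides were near equal in the groups or low in both. The 5 nearest loci that reached 1 FPKM in either group were taken on each side, a stretch of 2455 kb, and 0 of these 10 loci held a called transcript by the authors' q-value. Of their 50 tested transcripts, 2 had an unadjusted p under 0.05 in the authors' deposited table. Over all 85852 tested transcripts 0.255% were called, so nothing is read from the absence of a call among these 50. RefSeq places APBB2, an adaptor protein that binds the amyloid precursor protein, and LIMCH1, an actomyosin regulator, as the flanking protein-coding genes.

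The locus ending 3.36 kb to the left, chr4:40812044-41218731, stood at 13.2 FPKM in knockout cells and 9.72 FPKM in wild type cells. The locus starting 91.2 kb to the right, chr4:41361624-41702061, stood at 2.32 FPKM in knockout cells and 1.48 FPKM in wild type cells; its 340438 bases are the RefSeq length of LIMCH1. Both immediate neighbours were therefore slightly higher in the knockout, where the UCHL1 locus was lower.

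The lowest of the 10 by ratio was chr4:40425272-40632892, at 0.482 FPKM in knockout cells and 1.35 FPKM in wild type cells (log2 -1.48), a low locus in both. A locus of 201 bases, at 41926197, was listed at 0 in knockout cells and at 1.66 FPKM in wild type cells. The 9 flanking loci with values above 0 in both groups had log2 ratios between -1.48 and 0.65 with a median of 0.09, and 5 of the 9 were higher in the knockout. Over the 493 loci of chromosome 4 ranked, the median was 0.18, against 0.06 over all loci, and the UCHL1 locus had the lowest ratio of the chromosome.

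**Figure D3:**
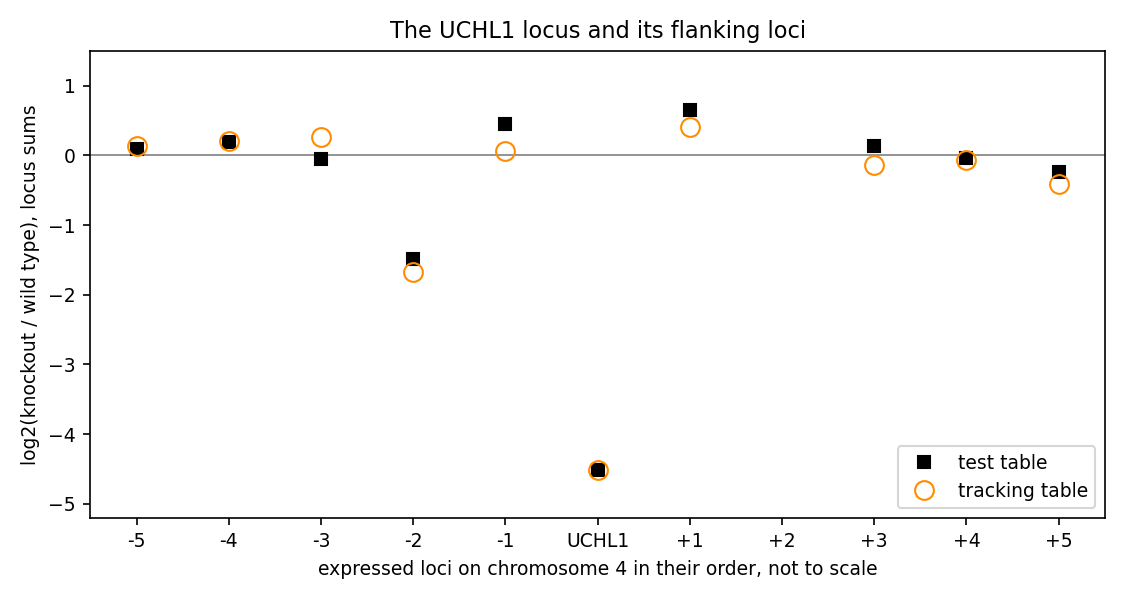
Log2 ratio of knockout over wild type locus sums for the UCHL1 locus and the 5 nearest expressed loci on each side, in their order on chromosome 4 (squares, test table; rings, tracking table); the second locus to the right has no ratio because it is listed at 0 in the knockout. The UCHL1 locus lies at -4.52 and the others between -1.48 and 0.65 in the test table.

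On the scale of log2(FPKM + 1), the fall of ENST00000514764 was the largest among called transcripts with a knockout value above 0, but not the largest difference measured. Of the 115 called falls that reached 1 FPKM and were above 0 in the knockout, ENST00000514764 ranked 1 and ENST00000508768 ranked 2 on this scale, in both tables. Next came ENST00000372397 on chromosome X, at 6.92 FPKM in knockout cells and 70.3 FPKM in wild type cells, a 10.2-fold fall. Without the added 1 FPKM, ENST00000514764 stayed at rank 1 and ENST00000508768 moved to rank 3. Among all 60188 tested transcripts that reached 1 FPKM in a group, 135 were lower still than ENST00000514764 on the same scale; 1 of these was called and 134 were not, and 122 were listed at 0 in the knockout.

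By locus sums the UCHL1 locus ranked 43 of 12467, and 41 of 12422 in the tracking table. Of the 42 loci with a lower ratio, 26 were under 10 FPKM in wild type cells and 2 held a called transcript. By their tracking values, 38 of the 42 were also at least 10-fold lower in the knockout. The other 4 were lower too, 2 of them by less than 2-fold.

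Among the 1909 loci of at least 100 FPKM in wild type cells and above 0 in the knockout, a bound set after the data were seen, the UCHL1 locus ranked 7. The lowest ratio there was that of chrX:114937131-114938440, at 0.457 FPKM in knockout cells and 688 FPKM in wild type cells, with 0 of its 2 tested transcripts called and 0 at an unadjusted p under 0.05. Among all tested transcripts 0.255% were called. Of the 6 loci with a lower ratio, 5 were at least 10-fold lower in the tracking table too, and summed bounds were separate at 3. For the locus on chromosome X the tracking values were 0.457 FPKM in knockout cells and 675 FPKM in wild type cells. Its summed bounds were 0.0199 to 0.895 FPKM in knockout cells and 672 to 678 FPKM in wild type cells. Another of the 6 lower ones, chr15:69452923-69564556, was at 9.53 FPKM in knockout cells and 243 FPKM in wild type cells, but its tracking value for the knockout was 214 FPKM. In all, 14 of these 1909 loci were at least 10-fold lower in the knockout; 9 of the 14 were so in both tables, and 6 of the 9 also had separate summed bounds. A called transcript was present at 2 of the 14, of which the UCHL1 locus was one. It was also 1 of 6 loci in the series with 2 called transcripts, the highest number at any locus, out of 213 loci with a call. The UCHL1 locus was chosen through its 2 called transcripts, so its place in both counts follows from that choice. Nothing is read from it.

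**Figure D4:**
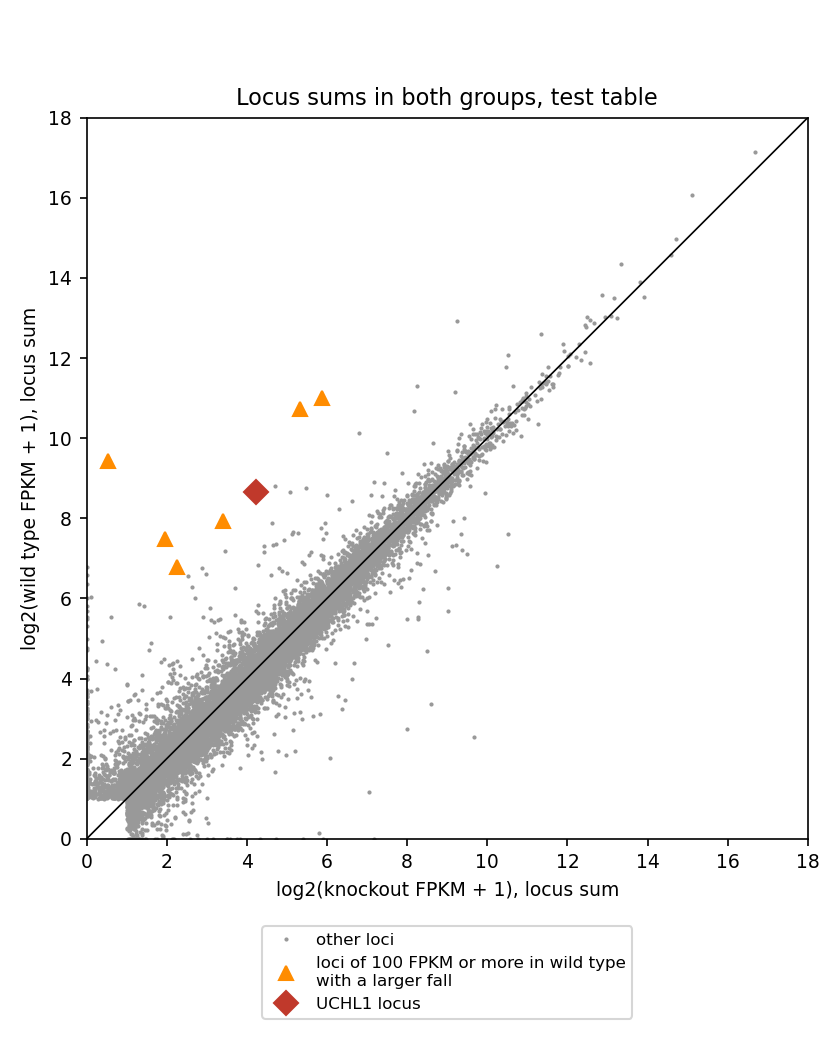
Locus sums of FPKM in the test table, as log2(FPKM + 1), in SETD2 knockout (horizontal axis) and wild type cells (vertical axis) for the 12620 loci that reached 1 FPKM in either group; the line marks equal values. The UCHL1 locus (diamond) lies above the line at 17.6 FPKM in knockout cells and 403 FPKM in wild type cells, and triangles mark the 6 loci of at least 100 FPKM in wild type cells with a lower ratio.

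The 3 loci whose pair of log2(FPKM + 1) sums lay nearest to that of the UCHL1 locus, compared over the 2 group values in the test table, held 0 called transcripts, and 0 of their 18 tested transcripts had an unadjusted p under 0.05 in the authors' deposited table. With 0.255% of all tested transcripts called, nothing is read from the absence of a call among these 18. Nearest, at a distance of 0.52 log2 units, was a locus of 78 bases with a single transcript, chr11:133768399-133768476, at 25.2 FPKM in knockout cells and 449 FPKM in wild type cells; its wild type interval was 0 to 1029 FPKM. The second, chr3:25639475-25706430, was at 32.6 FPKM in knockout cells and 403 FPKM in wild type cells, 12.4-fold apart (distance 0.85). The third, chr12:49159975-49182820, was at 23.5 FPKM in knockout cells and 234 FPKM in wild type cells, 9.93-fold apart (distance 0.88). Summed bounds were separate at the loci on chromosomes 3 and 12 and overlapped at that on chromosome 11. With 2 group values a likeness of this kind says only that the levels were near each other.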

How the data were processed

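RNA of SETD2 knockout and wild type HEK293T cells (3 libraries each) was analysed from 2 deposited tables. Per the submitters' processing notes, TopHat, Cuffdiff and Bowtie 1.1.2 and build hg19 are named, with no step given to each; the sources used here do not state the annotation. Per the file headers, the authors deposited FPKM per transcript and group with bounds, and a table of tests with a log2 fold (wild type divided by knockout), a score used as test statistic, a p-value and a q-value. The sign of the fold was turned, so negative means lower in the knockout. The tables named for genes and for transcripts were identical. Positions have 1 added to the deposited start.

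FPKM were summed per locus, leaving out 6 loci with a failed estimate. No test was computed; the authors' q-value at 0.05 was used. Items named beside the 14 transcripts are the 5 nearest loci of at least 1 FPKM on each side and the 3 loci most alike in both sums; other loci named were chosen after their values were seen. The ubiquitin genes and other hydrolases listed for naming could not be matched to the IDs. The members, lists and rules were chosen with earlier results of these data known. Sums, ranks and interval comparisons were tested on simulated data with Python 3.11.15, pandas 2.3.3 and numpy 2.4.6. The 8 ChIP samples were not analysed here.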

Additional observations from a re-analysis of the deposited data

How the results depend on the processing

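The log2 ratio of the UCHL1 locus stayed between -4.58 and -4.13 under 8 alternatives (tracking table, pseudocounts of 1 and 0.1 FPKM, transcripts of at least 1 FPKM, sums without 1 or both called transcripts, and 2 other scalings). Of 27 alternatives over all results, 23 moved the value by less than 1.5 times. The others were ranks: the locus ranked 43 as reported, 21 among loci of at least 5 FPKM, 11 with a pseudocount of 1 FPKM and 7 among loci of at least 100 FPKM in the wild type, and ENST00000514764 ranked 136 among all tested transcripts. Each of these ranks other loci or transcripts or gives less weight to low values by construction. Several of the 23 alternatives could hardly move a value. Both called transcripts had q = 0.0220 in the authors' test, under the stricter bound of 0.03, and transcripts under 1 FPKM held little of the locus sum. The alternatives for the ranks of ENST00000514764, the bound of 100 FPKM and the tracking values of the flanking loci were added after the data were seen. No paired analysis was possible because the tables hold 1 value per group, which also kept single libraries from being left out. Depth per library is unknown, so how the knockout level is spread over its 3 libraries was not analysed here.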
